A study of Mus musculus with 2 samples.

Results

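A set of 10 transcription factor genes that mark liver sinusoidal endothelial cells (LSECs) or endothelial cells in general were followed in single-cell RNA-seq libraries of mouse liver. The genes were Gata4, Gata2, Meis2, Tfec, Nr2f2, Sox17, Sox18, Sox7, Erg and Fli1, which are 10 of the 32285 genes in the deposited matrices. They were taken by symbol, not by their values: 9 matched directly, and Tcfec matched 1 gene through its RefSeq synonym Tfec. LSECs line the hepatic sinusoids as a fenestrated, scavenging endothelium. GATA4 is known as a regulator of LSEC identity, GATA2 as a regulator of vascular and blood gene programmes, and NR2F2 (COUP-TFII) as a factor of venous and lymphatic identity. MEIS2 is a TALE homeodomain factor, TFEC belongs to the MiT/TFE family of basic helix-loop-helix factors, SOX7, SOX17 and SOX18 form the SOXF group of vascular development, and ERG and FLI1 are ETS factors that maintain endothelial gene expression.

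The study deleted Maf, which encodes the transcription factor c-Maf, in LSECs. MafLSEC-KO mice carried the Clec4g-iCre transgene on 1 allele together with Maf fl/fl, and controls, which the labels call WT, were littermates without the transgene that were Maf fl/fl or Maf fl/wt. All mice thus carried a floxed Maf allele, and recombination depended on the Clec4g promoter, which is active in LSECs. Liver cells were enriched with beads against CD146, an endothelial surface protein, and each condition gave 1 droplet library from a pool of 3 mice, so no test between conditions was possible. Mice of both sexes and of more than 1 age entered the study, and the age and sex of these pools are not given in the sources used here.

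The matrices held 5664 control and 7091 MafLSEC-KO barcodes with 47681895 and 89872764 unique molecular identifiers (UMIs), and 10 barcodes occurred in both libraries. LSECs were taken as cells of endothelial clusters without a Vwf UMI, which left 4105 control and 3255 MafLSEC-KO cells with medians of 8403 and 13870 UMIs. Levels are UMIs summed over cells and given as CPM, that is per 1000000 UMIs after mitochondrial and ribosomal protein genes were set aside, and their exact Poisson 95% intervals cover counting error only. Of the LSEC marker list, all 7 measured genes were detected in both LSEC groups, with summed levels of 14884 CPM in control and 4523 CPM in MafLSEC-KO cells. Markers of other states also differed between the libraries: cycling genes summed to 163 CPM in control and 991 CPM in MafLSEC-KO LSECs, Kupffer cell genes to 45.3 and 86.3 CPM, and erythroid genes to 924 and 11.4 CPM. Pericentral genes summed to 1005 CPM in control and 158 CPM in MafLSEC-KO LSECs, lymphatic genes to 751 and 405 CPM, and neutrophil/monocyte genes to 16.6 and 48.7 CPM. Cells with 2 or more lymphatic genes made up 3.289% of control and 7.496% of the deeper MafLSEC-KO LSECs. The lymphatic sum and this share thus went in opposite directions. Flt4 was the only lymphatic gene detected in control LSECs with 1 Maf UMI, where the sum was 423 CPM. Prox1, another gene of the list, stood at 5.50 CPM in control and 8.95 CPM in MafLSEC-KO LSECs, a log2 ratio of 0.70 (0.44 to 0.97). In its bulk RNA-seq the paper reports slightly higher lymphatic markers in MafLSEC-KO, by gene set enrichment rather than a sum over this list. The part of these marker lists in the ratios given here was not tested.

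The targeted gene separated the libraries in the direction of their labels. Maf stood at 3465 CPM in control and 125 CPM in MafLSEC-KO LSECs, and 99.4% and 21.4% of the cells held a Maf UMI. Clec4g, whose promoter drives the recombinase, stood at 3010 and 1508 CPM. The position of the deleted part relative to the 3' tag that was counted is not given in the sources used here.

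Promoter windows of 250 bases upstream of an annotated start were read from RefSeq (GRCm38.p6) for the 5 members with an entry, which were Gata2, Meis2, Tfec, Nr2f2 and Erg, in 8 windows. Both strands were searched for 4 short motifs, none of which contains another. The Maf recognition motif TGCTGAC occurred in 3.81% of 32851 windows of the same length. The core of ETS sites, CCGGAA, occurred in 12.0% of them. The GATA motif AGATAA was present in 9.99%. The SOX motif ACAATG was present in 10.7%. The windows of Tfec, the member with the largest ratio between conditions, and of Gata2 are shown. The Tfec window is chr6:16898442-16898691 on the minus strand with 39.2% G and C, and its capitals mark the single ACAATG match, read on the opposite strand. The Gata2 window is chr6:88193641-88193890 on the plus strand with 67.2% G and C, and it held none of the 4 motifs. No annotated exon lies in either.
Tfec: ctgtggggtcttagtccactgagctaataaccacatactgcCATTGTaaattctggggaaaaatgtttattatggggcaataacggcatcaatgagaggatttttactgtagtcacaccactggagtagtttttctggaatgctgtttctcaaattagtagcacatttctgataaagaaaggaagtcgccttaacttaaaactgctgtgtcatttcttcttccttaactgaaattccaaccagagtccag
Gata2: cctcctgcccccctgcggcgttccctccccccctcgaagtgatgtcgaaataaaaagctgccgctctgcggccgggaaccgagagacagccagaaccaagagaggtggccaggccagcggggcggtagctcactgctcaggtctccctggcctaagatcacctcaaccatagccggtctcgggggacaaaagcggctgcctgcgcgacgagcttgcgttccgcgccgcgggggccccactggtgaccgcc
None of the 8 windows held TGCTGAC. Besides the Tfec match, 1 Erg window held the GATA motif and the SOX motif. A match is a description of letters, and a missing match says only that these letters are not in the window.

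The first comparison set MafLSEC-KO against control LSECs, which asks how the loss of c-Maf goes with the levels of the factors that define these cells. All 10 members passed the level floor of 10 CPM in either group. Tfec, of which LSECs and macrophages both carry transcripts here, was the 1 member at least 2-fold apart: it stood at 77.0 CPM in control (2535 UMIs) and 27.9 CPM in MafLSEC-KO LSECs (1121 UMIs), 2.76-fold lower. Of 9318 genes past the same floor, 10.5% were at least 2-fold higher and 4.54% at least 2-fold lower, so 0 of 10 and 1 of 10 members stand beside those shares. The median log2 ratio was -0.16 over the members and 0.13 over all genes past the floor.

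**Figure D1:**
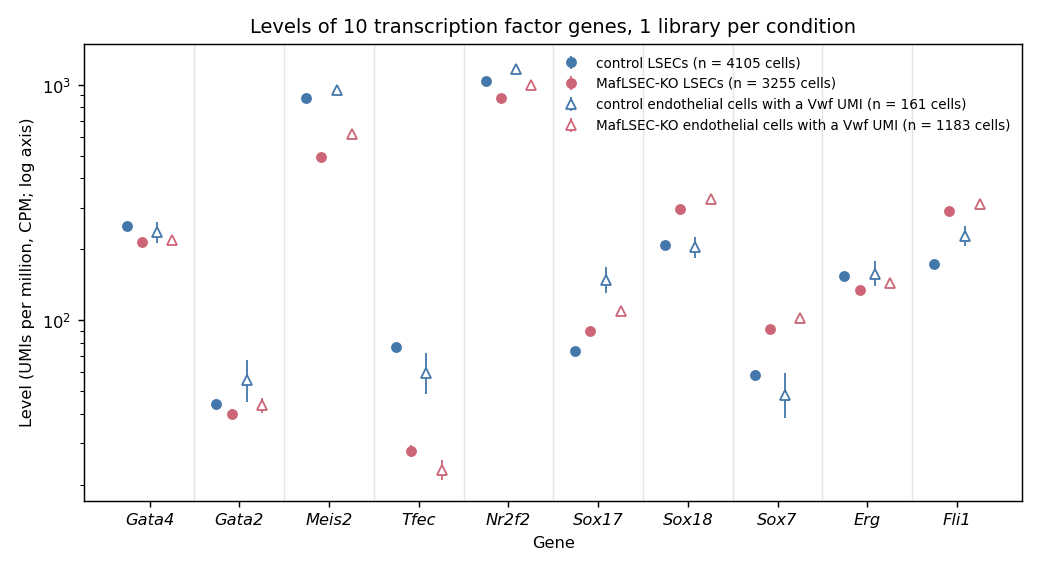
Level of each member (CPM, log axis) in LSECs and in endothelial cells with a Vwf UMI of both libraries, with exact Poisson 95% intervals as bars. Tfec and Meis2 are lower in MafLSEC-KO than in control LSECs, and Sox18, Sox7 and Fli1 are higher.

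The GATA factors were close between conditions. Gata4 (ENSMUSG00000021944) stood at 252 CPM in control and 214 CPM in MafLSEC-KO LSECs, a log2 ratio of -0.23 with an interval of -0.28 to -0.19. Gata2 stood at 43.8 and 40.0 CPM, a log2 ratio of -0.13 (-0.23 to -0.03). Both ratios lay below the median of all genes. Meis2, a cofactor of HOX and PBX proteins, was at 875 CPM in control and 495 CPM in MafLSEC-KO cells, a log2 ratio of -0.82 (-0.85 to -0.80) that missed the 2-fold limit. The log2 ratio of Tfec was -1.47 (-1.57 to -1.36). Nr2f2, a nuclear receptor, stood at 1041 and 881 CPM, a log2 ratio of -0.24 (-0.26 to -0.22).

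The 3 SOXF genes were all higher in MafLSEC-KO LSECs. Sox17, a factor of arterial endothelium, stood at 74.1 CPM in control and 89.9 CPM in MafLSEC-KO cells, a log2 ratio of 0.28 (0.20 to 0.35). Sox18 stood at 209 and 296 CPM, a log2 ratio of 0.50 (0.46 to 0.54). Sox7 stood at 58.4 and 92.0 CPM, a log2 ratio of 0.66 (0.58 to 0.74). None reached 2-fold. The ETS pair split: Erg was at 154 CPM in control and 134 CPM in MafLSEC-KO LSECs, a log2 ratio of -0.19 (-0.25 to -0.14), whereas Fli1 was at 174 and 290 CPM, a log2 ratio of 0.74 (0.69 to 0.78). Scaling by another total moved every log2 ratio by up to 0.19, and no member changed sign under the 16 settings tried. Of all genes past the limit, 69.8% were higher in MafLSEC-KO LSECs, and this share was 54.0% with scaling by all UMIs, 57.1% with TMM scaling and 58.8% with median-of-ratios scaling, under which the median of all genes moved to -0.07, -0.02 and -0.01.

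**Figure D2:**
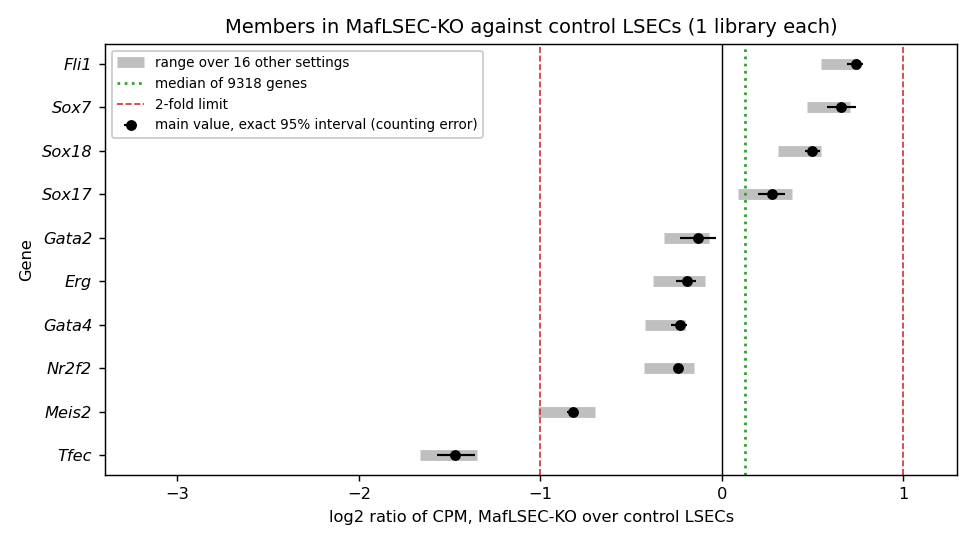
Log2 ratio of CPM in MafLSEC-KO over control LSECs for the 10 members, with exact 95% intervals for counting error as black bars, the range over 16 other settings as grey bars, the 2-fold limit as dashed lines and the median of all genes as a dotted line. Tfec at -1.47 lies past the limit, and Meis2 at -0.82 is the nearest to it among the others.

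Shares of cells with a UMI depended on depth, so cells were also thinned to 2700 UMIs, which left 3699 control and 3068 MafLSEC-KO LSECs and dropped 406 and 187. Tfec was detected in 38.8% of control and 25.2% of MafLSEC-KO LSECs before thinning, and in 15.7% and 5.93% after it. Neutrophil/monocyte-like cells, which should lack most members, held a Tfec UMI in 0 of 40 control cells (a share of at most 7.5% at 3 counts), and in 3.85% of MafLSEC-KO cells, or 3.5% after thinning, at median depths of 3863 and 4889 UMIs. Meis2 was found in 80.9% and 59.4% of thinned LSECs against 8.33% and 5.59% of neutrophil/monocyte-like cells, and Nr2f2 in 83.9% and 75.2% against 11.1% and 12.6%. Fli1 was found in 31.3% of thinned control and 41.9% of thinned MafLSEC-KO LSECs. For Gata4, Gata2 and Erg the unthinned share was higher in the deeper MafLSEC-KO library (74.6%, 32.6% and 64.4% against 68.9%, 26.2% and 58.8%), whereas the thinned share was lower (34.0%, 7.99% and 23.9% against 41.5%, 9.44% and 27.8%), so the unthinned order goes against the CPM.

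Other cells in the suspension also held Tfec and Fli1. Kupffer-like cells, the resident macrophages, held Tfec at 80.8 CPM in control and 96.6 CPM in MafLSEC-KO, and Maf at 1507 and 1535 CPM. Fli1, which blood cells also express, lay between 99.9 and 238 CPM in B-like, T/NK-like, Kupffer-like and neutrophil/monocyte-like cells of both libraries, so no cell type here gives its background. The 47 control B-like cells held Nr2f2 at 724 CPM, Meis2 at 486 CPM, Maf at 2324 CPM and Clec4g at 2055 CPM. The 38 MafLSEC-KO B-like cells held Nr2f2 at 193 CPM, Meis2 at 33.0 CPM, Maf at 21.99 CPM and Clec4g at 181.5 CPM. In the control B-like cluster 7 of 14 endothelial genes passed the share of cells asked of endothelial clusters, against 4 in MafLSEC-KO. These levels are thus no measure of expression by B cells. The part of endothelial RNA in them was not tested.

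MafLSEC-KO LSECs were then grouped by their Maf UMIs, which asks whether cells that kept Maf transcripts differ from those that did not. There were 2559 cells with 0 Maf UMIs, 346 with 1, 137 with 2 to 4 and 213 with 5 or more, with medians of 13598, 18009.5, 16709 and 10164 UMIs. After thinning, a Maf UMI was present in 10.3% of MafLSEC-KO LSECs, and 198 of these 317 cells were of the class with 5 or more. Neutrophil/monocyte-like cells of that library held one in 7.69%. They pool a cluster led by S100a9 with Maf in 5.6% of its cells and another led by Cd209a with 27.8%, before thinning. That share is thus not a uniform background. The part of free RNA in the class with 1 Maf UMI was not tested. Of the cells with 5 or more, 164 of 213 lay in merged clusters 1, 4, 5 and 7, which held most of the control endothelial cells and 196 MafLSEC-KO LSECs in all. Against cells with 0 Maf UMIs, 1 of 10 members (Tfec) was at least 2-fold higher and 0 were lower, beside 5.12% and 5.35% of 9440 genes.

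Tfec stood at 24.9, 29.1, 25.3 and 66.7 CPM in the cells with 0, 1, 2 to 4 and 5 or more Maf UMIs, so the top class alone stood apart. Its log2 ratio between the outer classes was 1.42 (1.16 to 1.67). Gata2 stood at 37.8, 40.6, 41.8 and 67.6 CPM, a log2 ratio of 0.84 (0.59 to 1.09). The level of Gata2 in the top class lay above that of control LSECs by 0.63 on the log2 scale (0.38 to 0.87), while Tfec lay at -0.21 from control (-0.45 to 0.03). Meis2 was 490, 482, 478 and 601 CPM over the 4 classes, a log2 ratio of 0.29 (0.21 to 0.37), and the top class remained at -0.54 (-0.62 to -0.46) from control LSECs.

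**Figure D3:**
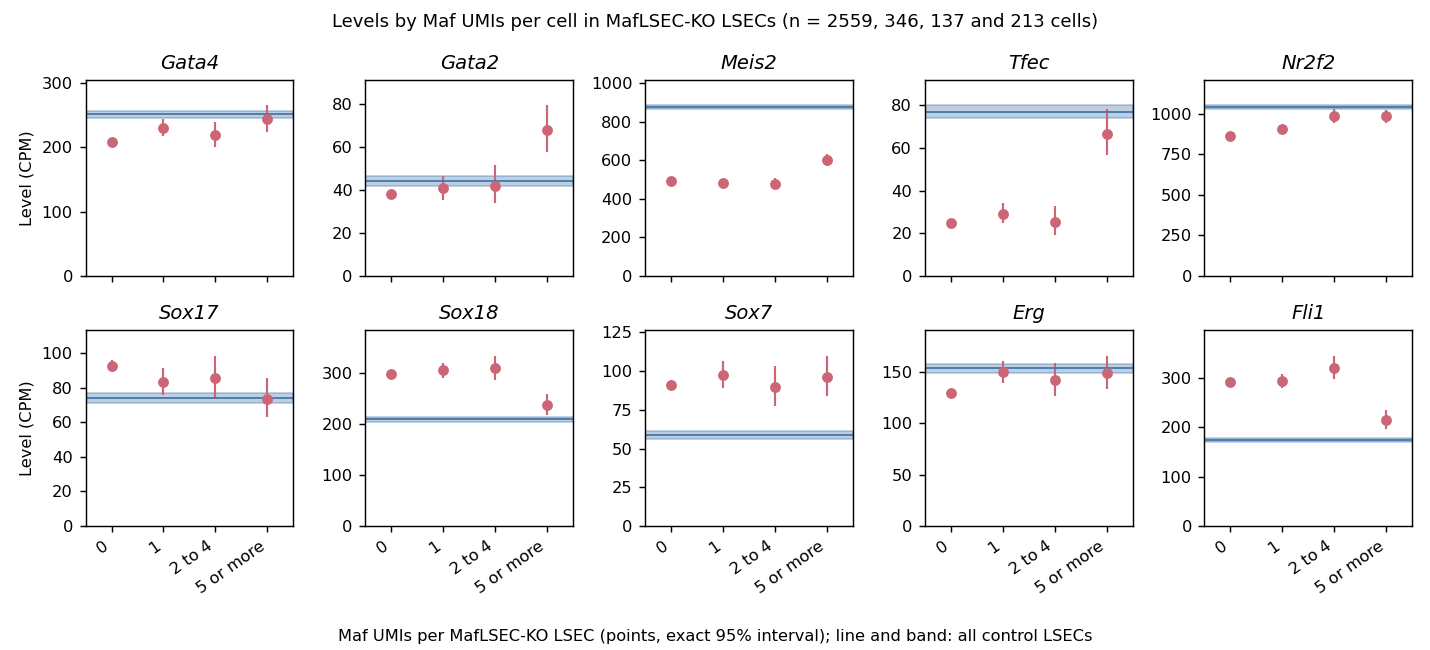
Level of each member (CPM, linear axes starting at 0, 1 scale per panel) in MafLSEC-KO LSECs by number of Maf UMIs, with exact Poisson 95% intervals as bars and the control LSEC level with its interval as a line and band. Tfec and Gata2 stand apart in the class with 5 or more Maf UMIs, at 66.7 and 67.6 CPM.

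The other members differed less between these classes. Gata4 and Nr2f2 were higher in the top class by log2 ratios of 0.23 (0.10 to 0.36) and 0.19 (0.13 to 0.25), and Erg by 0.20 (0.04 to 0.36). The interval of Sox7 crossed 0 (0.08, -0.12 to 0.28), and Sox7 in the top class stayed above control LSECs by 0.72 (0.51 to 0.93). Sox17, Sox18 and Fli1 were lower in the top class, with log2 ratios of -0.33 (-0.56 to -0.10), -0.33 (-0.46 to -0.20) and -0.44 (-0.58 to -0.31). Fli1 thus went from 292 CPM with 0 Maf UMIs to 215 CPM with 5 or more, and control LSECs were at 174 CPM.

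Markers of other cells moved with this grouping. LSEC genes summed to 4122 CPM in cells with 0 Maf UMIs and 10336 CPM in cells with 5 or more, Kupffer genes to 67.2 and 221 CPM, stellate genes to 29.8 and 696 CPM, lymphatic genes to 331 and 1605 CPM and cycling genes to 1046 and 216 CPM. Every listed gene of the Kupffer, stellate and lymphatic lists was detected in both classes. The log2 ratio of Tfec was 1.54 without the cells that held 2 or more Kupffer markers and 1.72 without any cell with a UMI of a Kupffer marker, which left 100 and 1315 cells.

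Endothelial cells with a Vwf UMI, the transcript of a large vessel protein, were set against LSECs in each library, which asks whether the factors differ with Vwf detection. There were 161 such control cells (median 11733 UMIs) and 1183 MafLSEC-KO cells (median 15032 UMIs), both deeper than the cells without one. Marker lists moved with this split: in control, LSEC genes summed to 7252 CPM with and 14884 CPM without a Vwf UMI, pericentral and central vein genes to 3392 and 1005 CPM, and erythroid genes to 3931 and 924 CPM. In MafLSEC-KO they summed to 3325 and 4523 CPM, 682 and 158 CPM, and 51.6 and 11.4 CPM, and the part of these lists in the ratios was not tested. Cells with 2 or more erythroid genes made up 0.621% of cells with and 0.414% of cells without a Vwf UMI in control. In MafLSEC-KO these shares were 1.27% and 0.553%. In the control library 0 members were at least 2-fold higher and 0 lower, beside 4.09% and 1.8% of 9014 genes, and in the MafLSEC-KO library 0 and 0 beside 1.46% and 0.239% of 9209 genes. Sox17 in control stood at 148 CPM with and 74.1 CPM without a Vwf UMI, 1.999-fold and just under the limit, a log2 ratio of 1.0 (0.81 to 1.19). In MafLSEC-KO it stood at 109 and 89.9 CPM, a log2 ratio of 0.28 (0.20 to 0.36). Sox17 was thus higher with than without a Vwf UMI in both libraries. Fli1 in control stood at 228 and 174 CPM, a log2 ratio of 0.39 (0.24 to 0.54), and Tfec at a log2 ratio of -0.37 (-0.67 to -0.08). In MafLSEC-KO the widest ratios were those of Meis2 at 0.31 (0.28 to 0.35), Sox17 at 0.28 and Tfec at -0.27 (-0.44 to -0.10). Over the members the median log2 ratio was 0.08 in control and 0.13 in MafLSEC-KO, beside 0.03 and -0.02 over all genes.

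**Figure D4:**
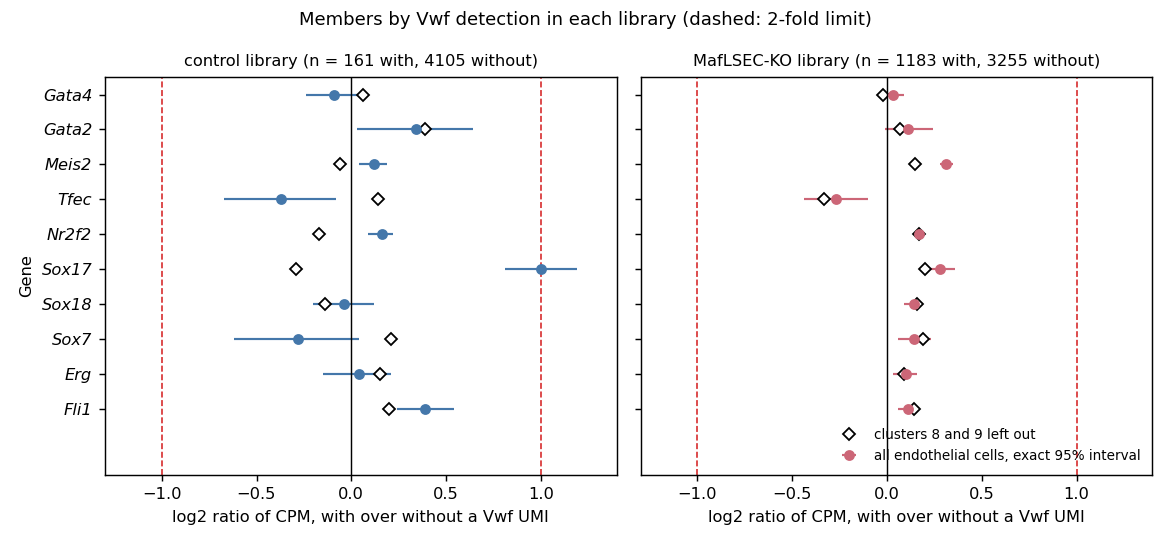
Log2 ratio of CPM in endothelial cells with over those without a Vwf UMI, control on the left and MafLSEC-KO on the right, with exact 95% intervals for counting error, dashed lines at the 2-fold limit and open diamonds for the ratio without merged clusters 8 and 9. The control Sox17 ratio of 1.0 turns to -0.29 without these clusters.

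Most of the control cells with a Vwf UMI lay in 2 merged clusters. Of the Vwf-positive cells, 105 of 161 in control (65.2%) and 239 of 1183 in MafLSEC-KO (20.2%) lay in cluster 8, led by Gja5 and Jag1, or cluster 9, led by Rspo3, Selp and Wnt9b. Without those clusters, 56 control and 944 MafLSEC-KO cells remained, and the control log2 ratios of Sox17, Meis2, Nr2f2 and Tfec became -0.29, -0.06, -0.17 and 0.14, all of opposite sign. Gata4 and Sox7, whose intervals crossed 0, also turned, to 0.06 and 0.21. In MafLSEC-KO Sox17 and Meis2 kept 0.20 and 0.15.

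Merged clusters, built from both libraries without the members, Maf or Vwf, showed where the members were high or low. Cluster 8 held Sox17 at 237 CPM in control and 226 CPM in MafLSEC-KO, and Sox7 at 21.4 and 48.5 CPM. Cluster 9 held Sox17 at 59.9 and 54.1 CPM and Sox7 at 63.7 and 114 CPM. The order of those genes was thus opposite between the vessel clusters in MafLSEC-KO. In control cluster 9 the genes had 31 and 33 UMIs, which do not tell them apart. Cluster 10 of MafLSEC-KO, led by Dcn, Ccl21a and Mmrn1, held Tfec at 3.85 CPM and Gata4 at 90.1 CPM. Clusters 5 and 7 were shallow and carried erythroid genes, and cluster 7, with a median of 3377.5 UMIs in control, also hepatocyte genes. Erg stood at 283 CPM in control and 277 CPM in MafLSEC-KO in cluster 7, above its level in all LSECs. The genes most like Erg over the cluster groups, Hamp (r = 0.893), Oip5os1 (0.863) and Hpd (0.842), include 2 hepatocyte genes.

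**Figure D5:**
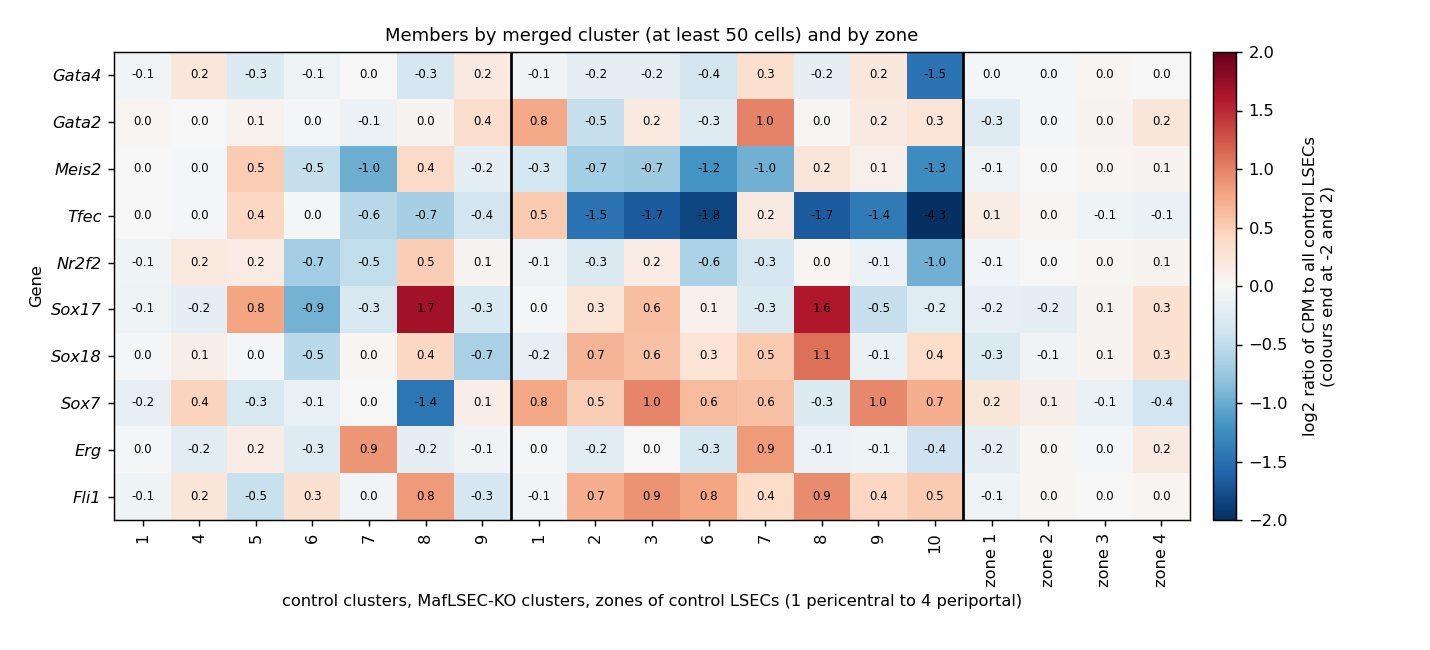
Log2 ratio of each member's CPM to that in all control LSECs, for merged clusters of at least 50 cells in each library and for the 4 zones of control LSECs, with colours that end at -2 and 2. Tfec in MafLSEC-KO cluster 10 lies beyond the colour range, and Sox17 is above all LSECs in cluster 8 of both libraries.

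Within clusters that held at least 50 cells of each library, the members differed less uniformly between conditions. Sox7 was higher in MafLSEC-KO in clusters 1, 6, 7, 8 and 9, at log2 ratios of 0.93, 0.79, 0.58, 1.18 and 0.83, and its interval crossed 0 in cluster 7 (-0.13 to 1.24). Gata4 lay between -0.27 and 0.31 in those clusters and Erg between -0.09 and 0.06. Sox18 was at 0.81 in cycling cluster 6 and 0.68 in cluster 8, but at -0.13 in cluster 1. In cluster 6 Sox17 was at 1.03 (0.53 to 1.57), while it was at -0.07 in cluster 8. The clusters hold different numbers of cells of the 2 libraries, 1631 and 65 in cluster 1 and 65 and 676 in cluster 6.

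The control LSECs were next placed on the lobular axis by 6 pericentral and 7 periportal landmark genes that contain no member, in 4 zones of 1017 cells from zone 1 (pericentral) to zone 4 (periportal), with medians of 8613, 9181, 9304 and 6025 UMIs. Sox18 stood at 171, 200, 217 and 259 CPM from zone 1 to zone 4, a log2 ratio of zone 4 over zone 1 of 0.60 (0.49 to 0.70). Sox17 stood at 66.5, 65.8, 76.8 and 91.9 CPM, a log2 ratio of 0.47 (0.29 to 0.64). Gata2 stood at 36.8, 43.0, 45.3 and 51.9 CPM, a log2 ratio of 0.50 (0.26 to 0.73). These 3 genes were highest in zone 4, as was Erg, with a log2 ratio of 0.36 (0.24 to 0.49). Sox7 ran the other way, at 68.8, 63.1, 53.3 and 44.8 CPM, a log2 ratio of -0.62 (-0.83 to -0.41), and Tfec at 85.0, 79.1, 72.8 and 70.2 CPM, a log2 ratio of -0.27 (-0.45 to -0.10). Gata4 did not differ along the axis beyond counting error (0.02, -0.07 to 0.12), and Meis2 and Nr2f2 were each at 0.12 and Fli1 at 0.14 (0.03 to 0.26). Zone 4 was the shallowest, and the part of depth in these ratios was not tested. Of the 121 control cells of merged cluster 8, 62 held a Vwf UMI, and the others counted as LSECs. Adgrg6, a periportal landmark, was among the leading genes of that cluster, which held Sox17 at 237 CPM in control. The part of its cells in these ratios was not tested.

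Family relatives of the members and other endothelial factors, 75 genes in all, were followed. Of these, 52 passed the floor in the comparison of MafLSEC-KO with control LSECs. In it 5 were at least 2-fold higher and 1 lower, beside 10.5% and 4.54% of all genes. Among the higher ones, Myc and Id1 are listed as other endothelial factors, not as family relatives. The paper names Myc as the factor raised most strongly in its bulk RNA-seq. Myc, a driver of growth and proliferation, stood at 77.5 and 4.71 CPM in MafLSEC-KO and control, Pknox2, a TALE factor, at 26.2 and 3.74 CPM, Sox4 at 228 and 71.7 CPM, Id1 at 251 and 96.0 CPM and Elf4, an ETS factor, at 15.1 and 6.62 CPM. Zfpm2, a partner of GATA factors, was lower at 4.62 against 23.5 CPM. Of the 14 ETS relatives past the floor 1 was higher and 0 were lower, with a median log2 ratio of -0.12, and Tfe3, the sole MiT/TFE relative past it, was at -0.76. In cells with 5 or more Maf UMIs Zfpm2 was higher than in those with 0, at 34.0 and 2.63 CPM.

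Between Vwf-positive cells and LSECs of the control, 8 of 53 listed factors were at least 2-fold higher, beside 4.09% of all genes. Their log2 ratios were 3.19 for Gata6, 2.29 for Hey1, a Notch target, 2.17 for Mecom and 1.69 for Foxc1. Those of Sox4, Sox13, Foxp1 and Id1 were 1.67, 1.47, 1.28 and 1.17. Gata6 stood at 1.34 CPM in control LSECs (44 UMIs), so it passed the floor through the Vwf-positive cells alone. Of those cells, 105 of 161 lay in merged clusters 8 and 9, and the part of these clusters in the ratios of the listed factors was not tested. Etv5 was lower, at -1.11, beside 1.8% of all genes. In MafLSEC-KO 1 of 52 (Hey1, 1.46) was higher and 0 lower, beside 1.46% and 0.239% of all genes. Between the classes of Maf UMIs 4 of 55 were higher, which were Zfpm2, Prox1 (2.63), the factor of lymphatic identity, Sox11 (2.19) and Tfeb (1.45), and 2 were lower, Sox12 at -1.25 and Myc at -1.50, beside 5.12% and 5.35% of all genes. Merged cluster 10, led by Dcn, Ccl21a and Mmrn1, held 13 of the 213 cells with 5 or more Maf UMIs. It held 64 of the 2559 cells with 0, and its part in these ratios was not tested.

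Likeness to other genes was taken over 15 cluster-by-library groups of at least 50 cells and 11202 genes, and Pearson's r is a description, since groups share libraries and depth. Tfec was most like Cd55 (r = 0.961), Zfp994 and Mid2. Sox17 was most like Efnb1 (0.961), Adgrg6 (0.888), which is a zone landmark, and Mecom (0.886). Sox7 was most like Lyl1 (0.892), Zfyve21 and Dok4, Gata2 like Amotl2 (0.854), Setd7 and Frs2, and Gata4 like Rab27a (0.921), Gm45353 and Exoc3l2. Meis2 was most like Rb1cc1 (0.898), Ocrl and Tmem44, Nr2f2 like Cemip2 (0.929), Psen2 and Bmpr2, and Sox18 like Gm14207 (0.933), Hs6st1 and Dbn1.

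The members lie on separate chromosomes except Gata2 and Tfec (chromosome 6), Gata4 and Sox7 (14), and Meis2 and Sox18 (2) in GRCm38. Tfec spans chr6:16833373-16898441 and Gata2 chr6:88193891-88207032. Nr2f2 and Sox17 each overlap a gene on the other strand, B130024G19Rik with 2210 control and 2846 MafLSEC-KO UMIs and Gm37587 with 428 and 360, and Fli1 overlaps Gm27201 with 2 and 16.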

How the data were processed

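Single-cell 3' libraries (10x Genomics) of CD146-enriched mouse liver cells were analysed, 1 of a control pool and 1 of a MafLSEC-KO pool of 3 mice each. The authors deposited filtered matrices of UMI counts per gene and barcode. The submitters' processing notes name Cell Ranger 6.0.2, Seurat 5.0.1 and the build mm10. Starting from those counts, cells with fewer than 1500 UMIs or 750 genes were left out. The automatic limit of Scrublet (scanpy 1.11.5) marked 0 doublets, so the cells with the highest scores, 225 in control (4.53%) and 308 in MafLSEC-KO (5.67%), were removed at the rate expected from the barcodes. Each library was clustered after log normalization (Seurat 5.3.0, R 4.3.3, resolution 0.3). A cluster was called endothelial-like where Pecam1 and at least 7 of 14 other endothelial genes were found in 50% of its cells. Of the markers of other cells, Adgre1, Clec4f, Ptprc, Cd52, Acta1 and Arg1 were checked, and none could pass that share. The stellate, lymphatic, cholangiocyte and erythroid lists were not used in this step. Other clusters were named from at least 3 markers among their 50 leading genes, and 135 control and 37 MafLSEC-KO cells stayed unnamed. The members, Maf and Vwf were kept out of the variable genes. Endothelial cells of both libraries were then clustered together. LSECs were endothelial cells without a Vwf UMI, and 93 of those of MafLSEC-KO lay in merged cluster 10, led by Dcn, Ccl21a and Mmrn1.

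Counts were summed per group of cells and scaled to CPM after mitochondrial and ribosomal protein genes were set aside. Intervals are exact at 95% (Poisson for CPM, conditional binomial for ratios, Clopper-Pearson for shares, with scipy 1.17.1) and cover counting error only. With 1 library per condition there was no test. A gene was past the limit when at least 2-fold apart and at 10 CPM or more in either group. A share of 0 allows up to 3 counts. The scripts were tested on simulated data.

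The 10 members were named in every comparison, and Maf, Vwf and Clec4g as checks. Related and other endothelial factors were named where past the limit, and for each member the 3 most correlated genes of log2(CPM + 5). Those of Fli1 are not reported here. The members and lists were chosen with earlier results of these data known. Alternatives covered scaling (TMM by edgeR 4.0.16 among them), thinning, filters on cells and limits. The deposited counts came from 1 library per group.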

Additional observations from a re-analysis of the deposited data

Results flagged for a closer look

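Tfec and Meis2 had ratios of opposite sign between conditions in different merged clusters, which is the reason they are given here. These differences between clusters were not tested, because each condition has 1 library. Tfec encodes a MiT/TFE family factor. Its log2 ratio of MafLSEC-KO over control was 0.52 (0.17 to 0.84) in cluster 1 and 0.73 (0.02 to 1.39) in cluster 7. It was -1.82 (-2.21 to -1.4) in cluster 6, -1.01 (-1.62 to -0.41) in cluster 8 and -1.05 (-1.74 to -0.35) in cluster 9. For Meis2, which encodes a TALE homeodomain factor, it was 0.28 in cluster 9, but -0.35 in cluster 1, -0.73 in cluster 6 and -0.15 in cluster 8. The MafLSEC-KO cells of clusters 1 and 7 held Maf at 2641 and 2282 CPM, and those of clusters 6, 8 and 9 at 22.7, 45.0 and 17.8 CPM.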

How the results depend on the processing

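No paired analysis was possible because each condition has 1 library. Of 82 alternative counts of members past the limit, 74 equalled the value reported. Every reported count was 0 or 1, so this share says little about how firm the counts are. At a limit of 1.5-fold there were 2 higher and 2 lower members between the conditions (21.6% and 10.0% of all genes), 2 higher between the Maf classes (11.5%) and 1 higher with a Vwf UMI in control (8.13%). Scaling by all UMIs gave 2 lower members between the conditions, since Meis2 then stood at -1.01, and the share of all genes lower went from 4.54% to 6.48%. With 2 or more Maf UMIs as the upper class 0 members were higher (2.95% of all genes), and Tfec was at 0.90. In control 1 member was higher with 2 or more Vwf UMIs (6.95% of all genes) and 1 without cells of 2 or more stellate markers (4.24%). Of 290 alternative log2 ratios 10 had the opposite sign, 6 of them of members whose reported interval crossed 0. The other 4 came from the control Vwf comparison without clusters 8 and 9: Meis2 -0.06, Tfec 0.14, Nr2f2 -0.17 and Sox17 -0.29. Apart from these 4, 215 ratios lay within the reported interval and 71 outside it. Chosen after seeing the data were leaving out clusters 8 and 9 from the Vwf comparisons, the platelet-led cluster, cluster 10 or clusters 5 and 7 between conditions, and clusters 5 and 7, cycling or Kupffer-marked cells between Maf classes. Depth limits low members such as Gata2, and counting intervals hold nothing of the spread between mice.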

Other observations

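Cycling LSECs, taken as cells with 2 or more of 7 cycling genes, were set against cells with 0. There were 113 such control cells and 906 in MafLSEC-KO, with 3619 and 1495 cells with none. Meis2 was lower in cycling cells, at log2 ratios of -0.33 in control and -0.37 in MafLSEC-KO, and Nr2f2 at -0.33 and -0.28. Sox17, a SOXF factor, was at -0.55 and -0.27. Fli1 was higher in the control cycling cells, at 0.37, and at 0.05 in MafLSEC-KO. Erg and Gata4 lay between -0.08 and 0.00 in both libraries. No member reached 2-fold. Cycling cells were deeper, with medians of 14694 and 20575 UMIs against 7970 and 10671.

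The SOXF genes were seen together in few thinned cells. After thinning, 45.6% of 3699 control and 40.5% of 3068 MafLSEC-KO LSECs held no UMI of Sox7, Sox17 or Sox18, and 0.7% and 1.0% held all 3. Erg and Fli1 were found together in 8.2% and 9.1%, and Gata2 and Gata4 in 3.5% and 3.1%. Before thinning, all 3 SOXF genes were found in 11.9% of control and 30.6% of MafLSEC-KO LSECs. Single genes were sparse after thinning too, with Sox7 in 11.95% of control and 14.96% of MafLSEC-KO LSECs. Whether genes occurred together more or less often than their separate shares give was not tested.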
